A study of Mus musculus with 278 samples.

Results

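The keratins Krt5, Krt14 and Krt15 were followed in single cultured mouse keratinocytes. They are 3 genes of the 14145 in the deposited expression table and were taken by name, not by a cut on a measured value. Earlier results of these data were known when they were chosen. All 3 passed the filter on low values. Their levels are given as TPM, a share of the transcripts of a cell that is scaled by gene length, so levels of different genes can be set side by side. Every cell adds up to 1000000 TPM, the number of reads behind a value is unknown, and no counting interval can be given for a level.

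Keratinocytes came from adult dorsal mouse skin. Wild type cells were mixed with K14ΔNβ-cateninER cells at a ratio of 9:1, and the mixture was given 200 nM 4-hydroxytamoxifen (4OHT; treated) or its solvent DMSO (untreated) for 24 h. K14ΔNβ-cateninER is a stabilised beta-catenin that 4OHT switches on and that is driven by the promoter of keratin 14, itself one of the genes described here. The study found transgenic cells by reads from the transgene and took them out of its own analysis, but the labels do not say which cells these were, so some may be among the cells described here. The labels also do not say whether wells of a condition came from different animals. Cells fell into 2 library series, named AG and GHA501A, each with both treatments: 66 untreated and 64 treated cells of AG, and 71 untreated and 69 treated cells of GHA501A. A cell is not a replicate of a condition, so each of these 4 library sets counted as 1 sample. A further 8 AG cells, whose names and treatment labels contradicted each other, were kept apart.

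All cells were labelled keratinocytes. The medians of genes detected at TPM over 1 in a set lay between 6008 and 6392, so the series had similar medians. Cells with few genes were more common in AG. Over 5000 genes were detected in 55 of 66 untreated and 57 of 64 treated AG cells. In GHA501A they were detected in 70 of 71 and 67 of 69 cells. The series stood apart in cell type markers. Of 9 keratinocyte markers other than keratins, 7 were detected in most cells of each AG set, against 0 in GHA501A untreated and 3 in GHA501A treated cells. The summed TPM of these markers ranged from 429 to 16886 in AG untreated, 12.2 to 8654 in AG treated, 0 to 6992 in GHA501A untreated and 0 to 10128 in GHA501A treated cells. The median GHA501A cell had no Cdh1, the epithelial cadherin, in either set. Of 6 fibroblast markers, 5 were detected in most cells of each GHA501A set and 1 in most cells of each AG set. Their summed TPM had medians of 46.2 and 91.02 in AG untreated and treated cells and of 2563 and 2312 in GHA501A untreated and treated cells. Of 8 cycling genes, 8 were detected in most cells of each GHA501A set and 6 and 5 in most cells of the AG untreated and treated sets. Other cell types could be checked with few genes: 3 melanocyte markers (median summed TPM of 45.2 and 35.3 in AG and 7.75 and 11.9 in GHA501A), 2 endothelial markers (median of 0 in each set) and the immune marker Lyz2 (24.0 and 31.3 in AG and 91.2 and 25.4 in GHA501A). Most GHA501A cells, by their fibroblast and keratinocyte markers, went against their label. The table also listed 34 genes at 0 in every GHA501A cell that were found in most AG cells, and 3 genes the other way round. The integrin Itgb4, a basal keratinocyte marker, was at 0 in 130 of 130 AG cells. The part of these differences in the results below was not tested.

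Keratins form the intermediate filaments of epithelial cells, and a filament is built from pairs of a type I and a type II keratin. In the epidermis the basal layer, which rests on the basement membrane and holds the dividing cells, is marked by the pair of type II Krt5 and type I Krt14. Krt15 is a further type I keratin of basal cells and is well known as a marker of the hair follicle bulge, where stem cells reside. Cells that leave the basal layer switch to the pair of Krt1 and Krt10, whereas Krt6a, Krt16 and Krt17 are keratins of hair follicles, wounds and cultured keratinocytes.

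The genes lie in the keratin clusters of the genome, and all are protein coding and on the minus strand. In build GRCm38 with the GENCODE M21 annotation, Krt14 spans chr11:100203162-100207548, Krt15 chr11:100131758-100135928 and Krt5 chr15:101707070-101712898. Keratins of one type are similar enough for reads to match more than 1 gene, and reads with more than 1 match had been discarded before the levels were made. The coding sequences were 1740 nt for Krt5, 1452 nt for Krt14 and 1368 nt for Krt15. Of all windows of 100 nt, the length of 1 read, 3.05% in Krt5 and 3.40% in Krt14 also stood unchanged in the transcript of another gene, and none in Krt15. With windows of 50 nt the shares were 10.8%, 16.8% and 0.834%. The longest coding stretch that Krt14 and Krt15 share with another keratin is shown to let these limits be seen, in capitals, with 12 nt of flanking coding sequence on each side in lower case.
Krt14, coding positions 306 to 439, shared with Krt16: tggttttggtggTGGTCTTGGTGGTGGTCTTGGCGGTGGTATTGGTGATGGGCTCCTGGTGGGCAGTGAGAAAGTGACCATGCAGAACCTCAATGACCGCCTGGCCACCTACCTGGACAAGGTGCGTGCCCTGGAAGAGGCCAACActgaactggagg
Krt15, coding positions 286 to 344, shared with Krt25: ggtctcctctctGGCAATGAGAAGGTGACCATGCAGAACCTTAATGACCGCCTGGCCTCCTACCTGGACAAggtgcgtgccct
The shared stretch made up 9.23% of the coding sequence in Krt14 and 4.31% in Krt15. Levels of Krt5 and Krt14 can therefore be understated, or differ from those of Krt6a and Krt16, through reads lost in such stretches, while Krt15 had no window of read length that was shared.

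Krt14, the type I partner of the basal pair, was the highest of the members in every library set. In AG untreated cells its TPM ran from 429 through a median of 4864 to 13082, and in AG treated cells from 63.7 through 4997 to 20424. All 130 AG cells exceeded a TPM of 1, and 62 of 66 untreated and 60 of 64 treated cells reached 1000. By mean TPM it ranked 13 among all genes in both AG sets and made up a median of 0.486% and 0.500% of the transcripts of an untreated and a treated cell. In GHA501A untreated cells Krt14 ran from 0 through a median of 2.25 to 4376, and in GHA501A treated cells from 0 through 10.1 to 12671. There, 47 of 71 untreated and 63 of 69 treated cells exceeded a TPM of 1, 10 and 20 cells reached 100, and 6 and 9 cells reached 1000. The highest GHA501A cells thus lay within the range of AG cells, although the GHA501A medians were far lower. The highest untreated GHA501A cell was below the AG untreated median.

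Krt5, the type II partner, was also higher in both AG sets than in both GHA501A sets, at a lower level than Krt14. In AG untreated cells it ran from 68.1 through a median of 1596 to 4497 TPM, and in AG treated cells from 2.20 through 1474 to 9297. In GHA501A untreated cells the median was 0 and the highest cell 2219, and in GHA501A treated cells the median was 6.79 and the highest cell 3845. A TPM over 1 was found in all 130 AG cells, in 28 of 71 GHA501A untreated cells (39.4%, 95% Wilson interval 28.9% to 51.1%) and in 52 of 69 GHA501A treated cells (75.4%, 64.04% to 84.01%). These intervals, as those that follow, cover the counting of cells alone. At TPM of 100 or more there were 64 of 66 and 62 of 64 AG cells against 8 of 71 and 14 of 69 GHA501A cells.

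Krt15 was the lowest member and, in AG, the most uneven one. Its median was 81.1 TPM in AG untreated and 159.2 TPM in AG treated cells, with a range from 0 to 1242 and from 0 to 2657. A TPM over 1 was found in 59 of 66 untreated (89.4%, 79.7% to 94.8%) and 61 of 64 treated AG cells (95.3%, 87.1% to 98.4%). In GHA501A it was detected in 4 of 71 untreated (5.63%, 2.21% to 13.6%) and 13 of 69 treated cells (18.8%, 11.4% to 29.6%), and the highest of them had 297 and 961 TPM. Its spread within AG was wide: the SD of log2(TPM + 1) over cells was 2.75 and 2.66 for Krt15, against 1.22 and 1.37 for Krt14 and 1.25 and 1.81 for Krt5, in untreated and treated cells. The Krt15 values include AG cells at 0. In GHA501A, where most cells had no Krt15, its SD was the smallest, at 1.40 and 2.23. There it was 3.40 and 3.80 for Krt14 and 3.03 and 3.69 for Krt5.

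**Figure D1:**
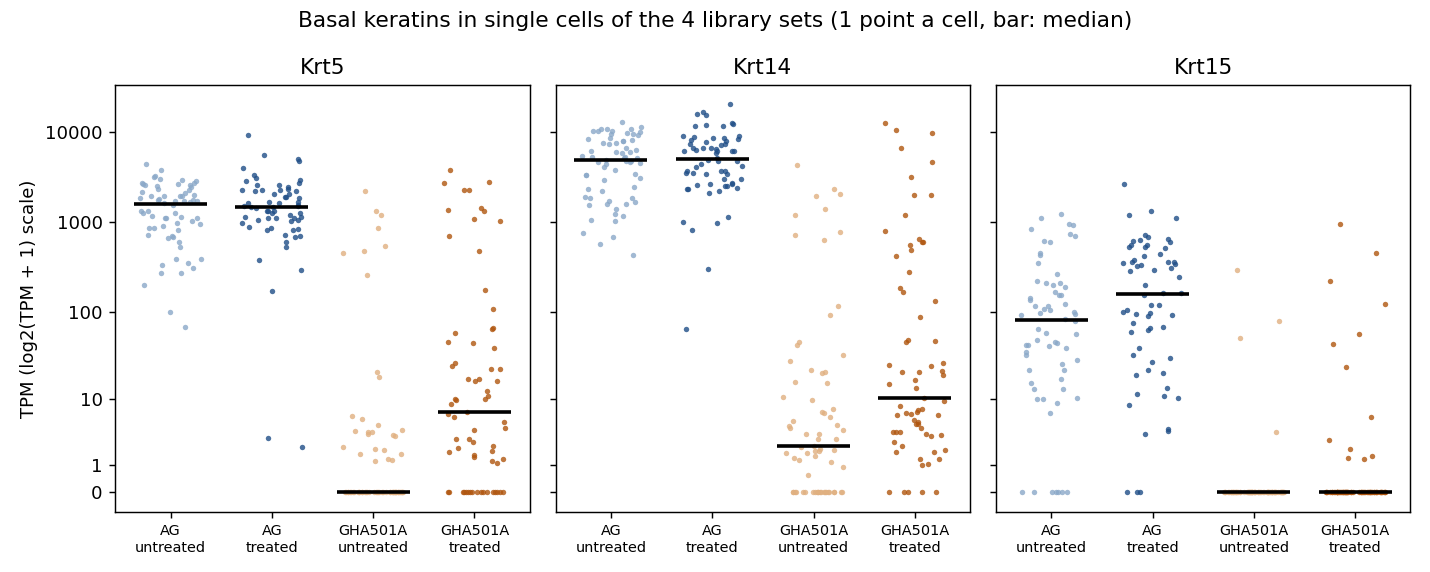
TPM of Krt5, Krt14 and Krt15 in each cell (vertical axis, log2(TPM + 1) scale) for the 4 library sets; each point is 1 cell and the bar is the median. AG cells form 1 high group for Krt5 and Krt14 and a wide spread for Krt15. Most GHA501A cells lie near 0, with a minority at 100 TPM or more, within the AG range.

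The levels differed between series beyond the spread between sets. The mean Krt14 TPM was 5314 and 6039 in the untreated and treated AG sets and 226 and 846 in the corresponding GHA501A sets. The mean Krt5 TPM was 1581 and 1816 in AG against 104.8 and 322 in GHA501A, and the mean Krt15 TPM 195 and 310.1 against 6.07 and 27.5. For each of the 3 genes both AG sets lay above both GHA501A sets. Of all 12355 genes tested, 6107 had a log2 difference of AG minus GHA501A above 0. The share of all genes with both AG sets above both GHA501A sets was not counted. Between single cells the series overlapped: 21 of 69 GHA501A treated cells had more Krt14 than the lowest AG treated cell, and 4 of them reached the AG treated median. Of 71 GHA501A untreated cells 9 had more Krt14 than the lowest AG untreated cell, and 0 reached the AG untreated median.

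limma's moderated test on log2(mean TPM of a set + 1), with treatment as a block, gave log2 differences of AG minus GHA501A of 3.20 for Krt5 (SE 0.35, adjusted p = 0.00164), 3.69 for Krt14 (SE 0.39, adjusted p = 0.00155) and 4.12 for Krt15 (SE 0.40, adjusted p = 0.0012). A gene was called at an adjusted p under 0.05 and an absolute log2 difference over 0.5, and all 3 genes were called higher in AG. Over the 12355 genes tested 33.7% were called in either direction, 13.6% higher and 20.1% lower in AG, so such a call was common. With 2 sets against 2 the moderated SE leans on all genes: the residual SD of the gene itself was 0.71, 0.86 and 0.67 for Krt5, Krt14 and Krt15, and the moderated SD 0.35, 0.39 and 0.40. Without the AG untreated set, in a fit without the block, the differences were 3.30, 3.78 and 4.45 for Krt5, Krt14 and Krt15, but the calls were lost (adjusted p = 0.144, 0.149 and 0.13). Likewise, without the AG treated set the differences were 3.10, 3.60 and 3.79 (adjusted p = 0.149, 0.151 and 0.154). In these fits the spread comes from the GHA501A sets, and the lone AG set is assumed to vary like them. The calls held without either GHA501A set (adjusted p from 0.0131 to 0.0323). The series is also a batch, and series, batch and the cell type markers above cannot be told apart. Here, a p-value sets the series difference against a spread that is moderated over all genes. In the fit with the block that spread comes from how the difference varied between treatments, not from replicates of a set, and it may be technical.

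4OHT treatment was not followed by a change that passed the test. The log2 difference of treated minus untreated set levels, with series as a block, was 0.91 for Krt5 (SE 0.35, adjusted p = 0.998), 1.04 for Krt14 (SE 0.39, adjusted p = 0.998) and 1.34 for Krt15 (SE 0.40, adjusted p = 0.998) in limma's test. None of the 3 genes was called, and over all 12355 genes 0.00% were called, with 486 at an unadjusted p under 0.05. The unadjusted 95% intervals reached from 0.06 to 1.75 for Krt5, from 0.08 to 2.003 for Krt14 and from 0.36 to 2.31 for Krt15.

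Within a series the treated set mean was above the untreated one for each of the 3 genes, by unequal amounts. Of all 12355 genes tested, 2903 had a higher treated set level in both series. So had 7 of 13 type I and 3 of 13 type II keratins, the members included. In AG the ratio of the means was 1.15 for Krt5, 1.14 for Krt14 and 1.59 for Krt15. In GHA501A it was 3.07 for Krt5, 3.75 for Krt14 and 4.52 for Krt15. Of the 9 keratinocyte markers other than keratins, 8 also had a higher treated set mean in GHA501A. Their median treated minus untreated log2 difference was 1.21 there (Dsg3 2.90, Lamb3 2.51 and, below 0, Cldn1 -1.24), and they had a median of -0.47 in AG, where the members were above 0. The part of a different share of cells with these markers in the GHA501A ratios was not tested, and more such cells and more RNA per cell cannot be told apart in a set mean. The median of Krt5 in AG was instead lower in treated cells, 1474 against 1596. The cells of the treated and untreated sets overlapped in both series, but for each gene the highest cell was a treated one. In GHA501A the highest treated and untreated cells had 3845 and 2219 TPM of Krt5 and 12671 and 4376 TPM of Krt14. For Krt15 they had 961 and 297 TPM. In AG these values were 9297 and 4497, 20424 and 13082, and 2657 and 1242 TPM in the same order of genes. With 1 set for each treatment in a series, neither ratio has a replicate check, and the difference between the series could not be tested. An exact sign-flip test over 2 series cannot give a two-sided p under 0.5.

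**Figure D2:**
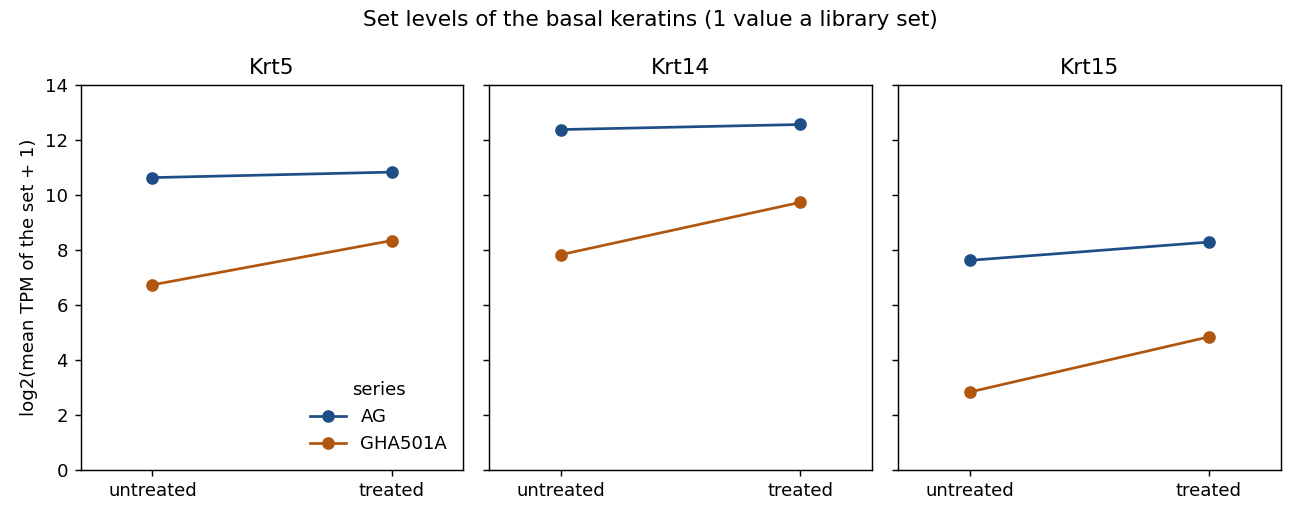
Level of each gene, as log2(mean TPM of the set + 1) on the vertical axis, in the untreated and treated library sets, with a line joining the sets of a series. The AG sets lie above the GHA501A sets for each gene, and the line of GHA501A climbs by 1.61, 1.90 and 2.01 for Krt5, Krt14 and Krt15 against 0.20, 0.18 and 0.66 in AG.

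A few cells carried much of the GHA501A means. The 5 highest cells held 75.7% of the summed Krt14 TPM in GHA501A untreated and 76.1% in GHA501A treated cells, against 16.3% and 21.1% in the AG sets. For Krt5 these shares were 82.8% and 62.5% in GHA501A against 17.0% and 24.7% in AG. In the AG sets 45 or 46 cells were needed to reach 90% of the sum of either gene, and in GHA501A between 7 and 10 cells. The treated and untreated GHA501A sets also differed at low levels of Krt5, which lay between 10 and 100 TPM in 16 of 69 treated and 2 of 71 untreated cells. For Krt14 the counts were closer, with 15 of 69 treated (21.7%, 13.6% to 32.8%) and 11 of 71 untreated cells (15.5%, 8.88% to 25.7%). These 2 intervals overlapped.

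The shape of the distributions was described by the number of peaks of a smoothed density of log2(TPM + 1), with a kernel bandwidth of 0.75. Krt14 had 1 peak in either AG set, at 6207 TPM in untreated and 5404 TPM in treated cells. Krt5 also had 1 peak in either AG set, at 1721 and 1498 TPM, with 2 treated cells far below the others, at 2.20 and 2.99 TPM. In GHA501A untreated cells both genes had 2 peaks, the upper at 652 TPM for Krt5 and 1398 TPM for Krt14. The valley between them lay at 77.8 TPM for Krt5 and 246 TPM for Krt14, and 0 cells lay within 1 log2 unit of it for either gene. In GHA501A treated cells 3 peaks were counted for either gene, and 2 with a bandwidth of 1.

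Over all 270 cells Krt14 and Krt5 each had 2 peaks, with valleys at 156.6 and 99.4 TPM and with 8 and 9 cells within 1 log2 unit of the valley. In AG 1 cell had Krt14 and 4 cells had Krt5 under 100 TPM, so the lower peak held GHA501A cells for the most part. Krt15 differed: in both AG sets 2 peaks were counted, 1 of them the cells at or near 0 (7 of 66 untreated and 3 of 64 treated cells at 0) and the other a broad hump at 102.97 and 415 TPM. In GHA501A Krt15 had 1 peak, at 0. These numbers depend on the bandwidth, since 11 of 24 counts changed with a bandwidth of 0.5 or 1. A bimodality coefficient, which rises with separate groups and with skew, ordered the sets otherwise. In AG untreated and treated cells it was 0.45 and 0.51 for Krt15, against 0.53 and 0.67 for Krt5. For Krt15 in GHA501A untreated and treated cells it was 0.92 and 0.87. The number of peaks for Krt15 in AG is thus a description that depends on the measure.

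Within a cell, Krt5 and Krt14 went together more closely than either did with Krt15. Spearman's correlation of Krt5 with Krt14 over cells was 0.54 in AG untreated (n = 66) and 0.74 in AG treated cells (n = 64), 0.36 in GHA501A untreated (n = 71) and 0.78 in GHA501A treated cells (n = 69). That of Krt14 with Krt15 was 0.40, 0.25, 0.22 and 0.12 in the same order of sets, and that of Krt5 with Krt15 0.18, 0.20, 0.27 and 0.18. Pearson's correlation of log2(TPM + 1) for Krt5 with Krt14 was 0.64, 0.57, 0.78 and 0.87. The gap between treated and untreated cells thus depended on the measure, and it had the other sign in AG. Many GHA501A cells tied at 0: Krt5 was above 0 in 28 of 71 untreated cells, and Krt15 in 4 of 71 untreated and 13 of 69 treated cells. The cells of a set share a library series and a treatment, each cell has a fixed sum of TPM, and these values are descriptions. The number of genes detected in a cell correlated with Krt14 at -0.03 and 0.07 and with Krt5 at -0.20 and -0.03 in AG untreated and treated cells, and with Krt15 at 0.21 and 0.39. In cells with over 5000 genes Krt14 and Krt15 correlated at 0.48 in AG untreated and 0.16 in AG treated cells.

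Detection in the same cell was nearly complete in AG and sparse in GHA501A. All 3 genes exceeded a TPM of 1 in 59 of 66 AG untreated and 61 of 64 AG treated cells, and in 3 of 71 and 10 of 69 GHA501A cells. No AG cell lacked both partners of the basal pair. In GHA501A untreated cells 20 had both Krt5 and Krt14, 8 had Krt5 alone and 27 had Krt14 alone, and in GHA501A treated cells the counts were 50, 2 and 13. At TPM of 100 or more, Krt5 without Krt14 was found in 1 AG treated cell and in 0 GHA501A cells, whereas Krt14 without Krt5 was found in 2 cells of each AG set and in 2 GHA501A untreated and 6 GHA501A treated cells. Every GHA501A cell with Krt5 at 100 TPM or more thus also had Krt14 at that level. For Krt15 at that level 1 of 1 GHA501A untreated and 3 of 4 GHA501A treated cells did.

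**Figure D3:**
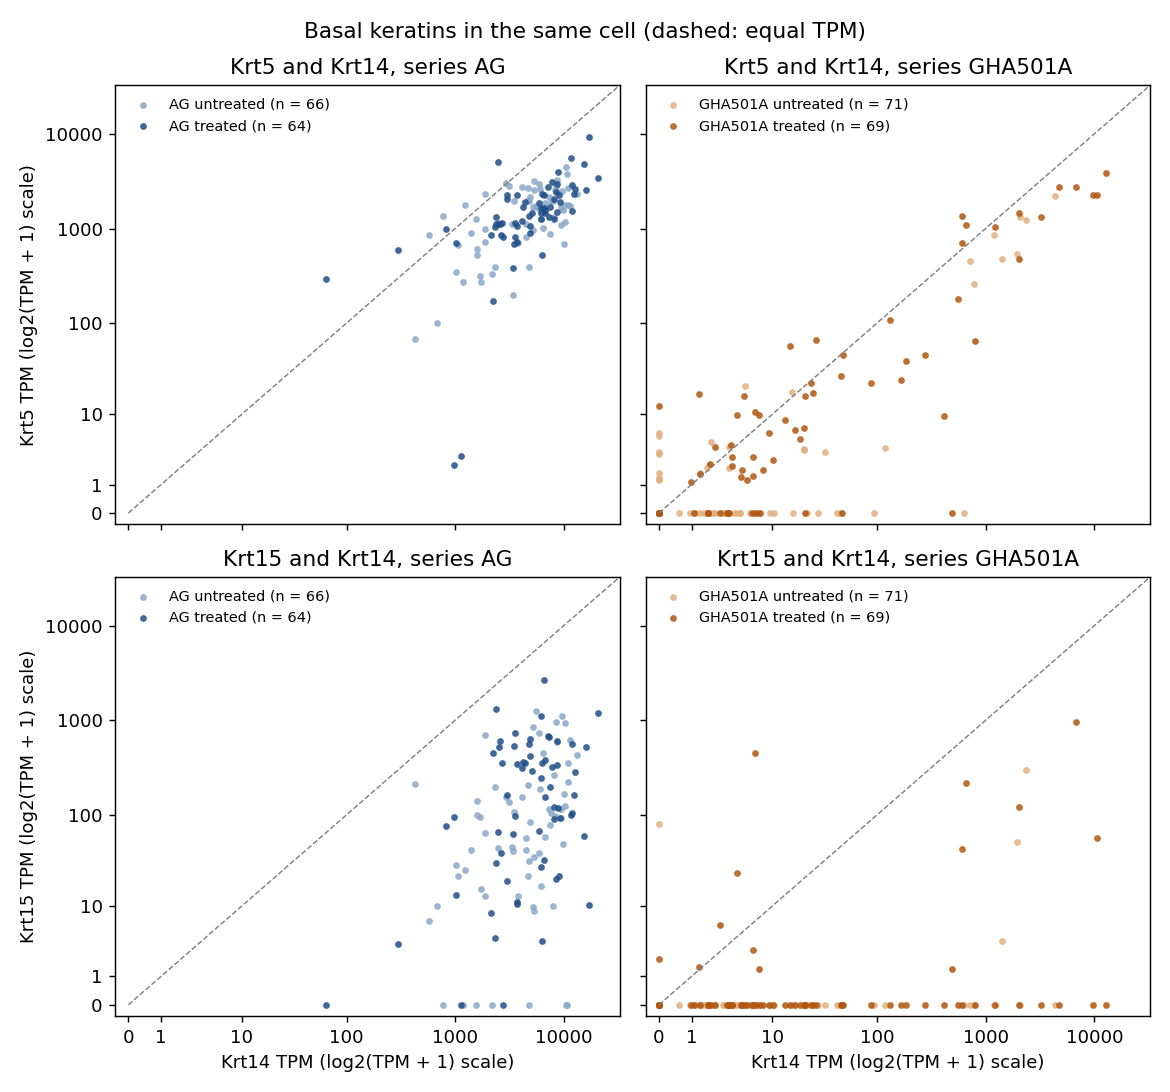
Krt5 (upper panels) and Krt15 (lower panels) against Krt14 in the same cell, both axes as TPM on a log2(TPM + 1) scale, for the AG and GHA501A series; each point is 1 cell and the dashed line marks equal TPM. Krt5 follows Krt14 below the line, and Krt15 spreads from 0 to 2657 TPM in AG cells, whose Krt14 runs from 63.7 to 20424 TPM.

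Krt14 exceeded Krt5 in most cells. Among cells with both genes at 10 TPM or more, the median ratio of Krt5 to Krt14 was 0.300 in AG untreated (66 cells) and 0.290 in AG treated cells (62 cells), with quartiles of 0.172 and 0.455, and of 0.210 and 0.435. Krt5 was the higher of the pair in 5 and 4 of these cells. In GHA501A the median ratio was 0.521 in 9 untreated and 0.581 in 26 treated cells. With both genes at 100 TPM or more the GHA501A medians were 0.514 in 8 and 0.492 in 14 cells, and the AG medians 0.311 and 0.288. The quartiles of the treated and untreated AG cells overlapped, and both GHA501A medians lay above the upper AG quartiles, which was not tested.

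Krt15 stayed below Krt14 in every cell with both at 10 TPM or more. The median ratio of Krt15 to Krt14 was 0.0209 in 55 AG untreated and 0.0404 in 57 AG treated cells, and it ranged from 0.0028 to 0.496 and from 0.0006 to 0.558. The SD of the log2 ratio was 1.68 and 2.10, against 1.05 and 1.02 for Krt5 to Krt14. When AG cells were ordered by Krt14 and cut into 3 groups of like size, the median of Krt15 was 35.3 TPM in the lowest and 119.6 TPM in the highest group of untreated cells. In treated cells it was 62.2, 311 and 180.98 TPM from the lowest to the highest group. Krt5 had medians of 691, 1715 and 1903 TPM in the untreated and of 861, 1456 and 2516 TPM in the treated groups. Krt5 thus climbed with Krt14 in both sets, and Krt15 did not climb throughout in treated cells.

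**Figure D4:**
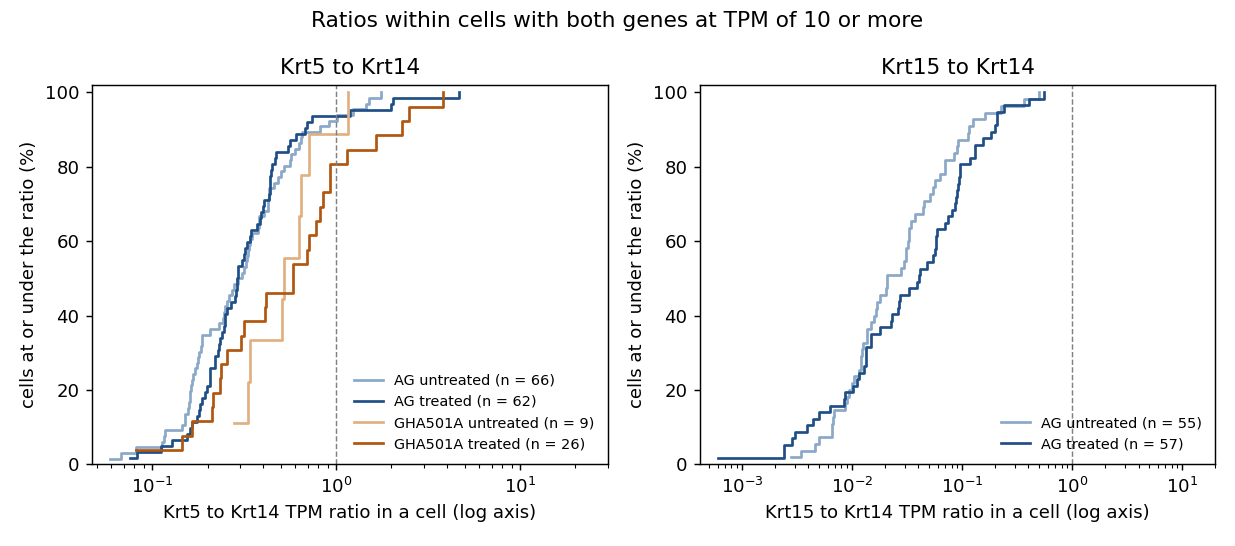
Share of cells (vertical axis, percent) at or under a given ratio of Krt5 to Krt14 (left) or Krt15 to Krt14 (right) within the same cell, on a log axis, in cells with both genes at TPM of 10 or more; sets with at least 6 such cells are drawn and the dashed line marks a ratio of 1. The AG curves for Krt5 nearly coincide around 0.300 and 0.290, and those for Krt15 are wider and lie around 0.0209 and 0.0404.

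Although the members are keratins of the basal layer, they were not the highest keratins of these cultures. Among the 21 type I keratins in the table Krt14 held a median of 19.3% of the type I TPM of an AG untreated and 19.7% of an AG treated cell, with ranges of 5.35% to 78.1% and 1.94% to 66.5%. Krt17 held 64.97% and 65.9%, and Krt15 0.227% and 0.601%. Among the 19 type II keratins Krt5 held 16.8% and 18.9%, with ranges of 3.61% to 60.1% and 1.63% to 73.01%, and Krt6a held 50.99% and 46.9%. The summed type II TPM was below the type I TPM, with a median ratio of 0.338 in AG untreated and 0.258 in AG treated cells. In the 12 untreated and 22 treated GHA501A cells with at least 1000 TPM of keratins in all, Krt14 held a median of 7.61% and 15.3% of type I TPM and Krt5 of 9.71% and 14.1% of type II TPM.

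For each member the 5 genes with the highest mean correlation over the 2 sets of a series were named, among genes detected in at least 10% of the cells of each set. In AG, out of 9399 genes, the nearest genes of Krt14 were Krt16 (mean Spearman 0.79), Krt5 (0.64), Krt17 (0.57), Krt42 (0.54) and Krt6a (0.53). Those of Krt5 were Krt14 (0.64), Krt6a (0.55), Dsp (0.51), Krt16 (0.50) and Krt75 (0.44), where Dsp is desmoplakin, which ties keratin filaments to desmosomes. Apart from Dsp these are all keratins, and several share coding stretches with the member they follow: Krt16 with Krt14, as printed above, and Krt17 with Krt14 over 71 nt, while Krt6a was the gene that shared most windows of 100 nt with Krt5. The part of shared sequence in these correlations was not tested.

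The nearest genes of Krt15 in AG were Krt17 (0.49), Pdlim1 (0.48), Cope (0.48), Cotl1 (0.48) and Ndufv3 (0.47), of which only Krt17 is a keratin. Pdlim1 and Cotl1 encode actin-associated proteins, Cope a subunit of the vesicle coat and Ndufv3 a subunit of respiratory complex I. Krt14, with a mean correlation of 0.33, and Krt5, with 0.19, were not among the nearest genes of Krt15, and Krt5 stood at rank 1709 of 9399. Over all genes the median correlation was 0.08 with Krt15, 0.01 with Krt14 and -0.01 with Krt5. Over 8 type I keratins it was 0.32 with Krt15, 0.20 with Krt14 and 0.12 with Krt5. Krt15 also correlated with the number of genes detected, at 0.21 and 0.39 in AG untreated and treated cells. The part of that number in the nearest genes of Krt15 was not tested.

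In GHA501A, out of 9810 genes, the nearest genes of Krt14 were the keratinocyte protein Sfn (0.61), Krt6a (0.61), Krt17 (0.60), Krt6b (0.60) and the hemidesmosome collagen Col17a1 (0.60). Among those of Krt5 were Krt6b (0.59), the epidermal secreted protein Dmkn (0.57), Krt6a (0.57) and Krt14 (0.57). Krt15 was itself detected in fewer than 10% of the untreated cells. Its nearest genes, among them Dsp (0.45), Calcb (0.43), Ripk4 (0.38) and Tcea3 (0.38), rest on 17 cells with a TPM over 1. In GHA501A the fibroblast markers had a median correlation of -0.30 with Krt14 and -0.34 with Krt5 and the keratinocyte markers of 0.45 and 0.46, beside 0.00 and -0.01 over all genes.

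Krt14 and Col1a1, the main chain of fibrillar collagen type I and a fibroblast marker, were set against each other at 100 TPM. In GHA501A untreated cells 8 had Krt14 alone at that level, 60 Col1a1 alone, 2 both and 1 neither. In GHA501A treated cells 10 had Krt14 alone, 49 Col1a1 alone, 10 both and 0 neither. In AG 64 of 66 untreated and 59 of 64 treated cells had Krt14 alone, and 2 and 4 had both. Of the GHA501A cells with Krt14 at that level, 8 of 10 untreated and 10 of 20 treated cells thus had Col1a1 under 100 TPM, and the cells with both had at most 3211 TPM of Krt14.

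Low levels of the basal pair were also read from cells with fibroblast markers. Among GHA501A cells with Col1a1 at 100 TPM or more and both Cdh1 and Epcam, an epithelial adhesion protein, at 0, Krt14 exceeded a TPM of 1 in 25 of 39 untreated cells, with a median of 1.95 and a maximum of 629 TPM. In treated cells it did in 18 of 21, with a median of 5.04 and a maximum of 276 TPM. Krt5 did in 11 of 39 and 15 of 21 of these cells, and Krt15 in 1 and 3. A TPM over 1 of Krt14 in a GHA501A cell thus did not set it apart from cells without epithelial markers. The medians of Krt6a (1.53 untreated, 14.3 treated) and Krt17 (14.5 untreated, 37.6 treated) over all GHA501A cells were also higher in the treated set, and the part of RNA from other cells in these low levels was not tested.

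**Figure D5:**
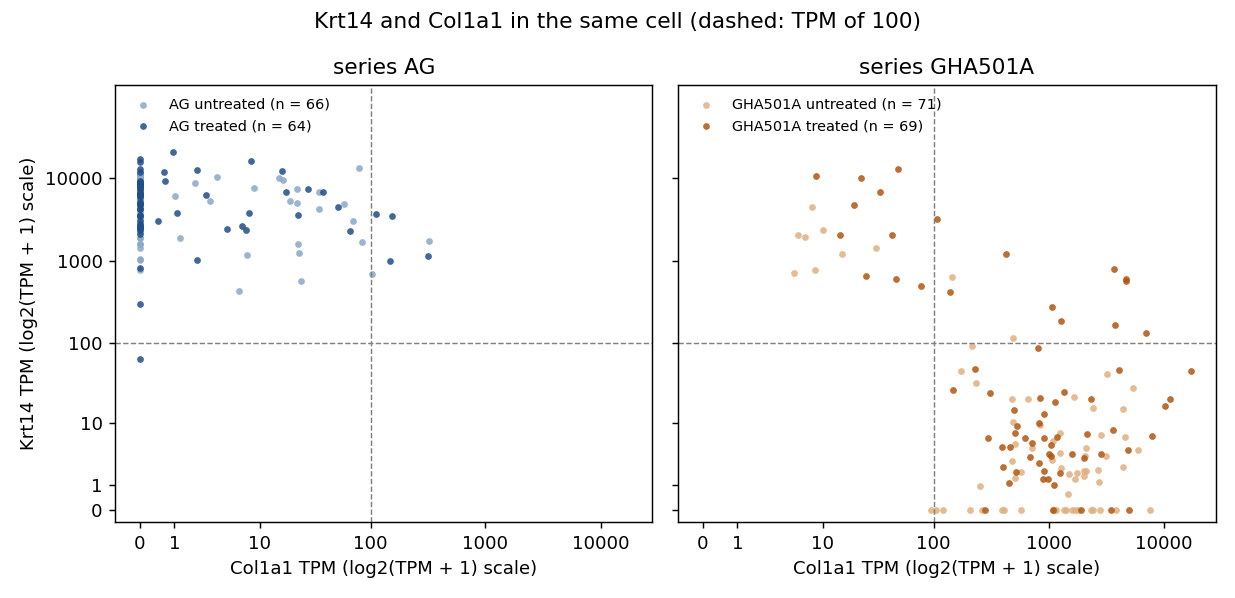
Krt14 (vertical axis) against Col1a1 (horizontal axis) in the same cell, both as TPM on a log2(TPM + 1) scale, in the AG and GHA501A series; each point is 1 cell and dashed lines mark a TPM of 100. AG cells lie at high Krt14 and low Col1a1, and GHA501A cells split between 8 untreated and 10 treated cells with Krt14 alone and 60 and 49 with Col1a1 alone, with 2 and 10 cells having both.

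Other genes of the keratin system were counted in the same fits. Of 13 type I keratins tested 7 were called higher in AG and 0 lower, and of 13 type II keratins 9 and 0, the members included, beside 13.6% of all genes called higher and 20.1% lower. Of 8 stress and simple epithelium keratins, 6 were called higher in AG and 0 lower, with a median log2 difference of 2.88, beside a median of -0.01 over all genes. Krt17 (3.005, SE 0.16, adjusted p = 0.000335) and Krt8 (3.64, SE 0.19, adjusted p = 0.000335 in limma's test) were among them, while Krt16 had a difference of 2.75 and an adjusted p of 0.106. Of 6 proteins that link keratins to desmosomes 4 were called higher and 1 lower. Dsp was higher by 3.89 and the plakophilin Pkp1 by 4.35, whereas Pkp3 was lower, with -1.74.

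Genes that hold basal cells to the basement membrane were divided: of 11, 4 were called higher in AG and 4 lower. The counts of this list and of those that follow are small and are to be read against the 13.6% of all genes called higher and 20.1% called lower, and nothing particular to these lists is read from them. The laminin chain Lama3 was higher by 2.99 and Col17a1 by 2.36, and the keratin linkers Plec, with -5.71, and Dst, with -2.62, were lower. All 4 genes called lower lay near the floor in both AG sets. As log2(mean TPM + 1), the AG untreated and treated levels were 0.26 and 0.18 for Plec and 0.20 and 0.11 for Dst. For Itgb4 they were 0 and 0. The source of these low AG levels was not tested. Of 10 transcription factors known to act on basal keratin genes or epidermal identity 3 were called higher, among them Grhl2 (2.40), and 2 lower, Tfap2a (-3.32) and Cebpb (-2.22). Of 5 suprabasal genes tested 0 were called higher and 1 lower, Dmkn, with -3.64 and AG set levels of 0.33 and 0.85. Krt10, the suprabasal type I keratin, had a difference of 0.42 and an adjusted p of 0.512. Of 4 hair follicle bulge genes, set beside Krt15, Sox9 was called higher (1.18) and Cd34 lower (-4.34). Cd34 was near the floor in AG, with set levels of 0.12 and 0.12. In the treatment comparison 0 genes of any of these lists were called.

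The 8 AG cells with contradictory names and labels had levels within those of the other AG cells. The 5 cells labelled treated whose name prefix otherwise marks untreated cells had medians of 1004 TPM for Krt5, 2567 for Krt14 and 75.4 for Krt15. The 3 cells labelled untreated with the prefix of treated cells had medians of 1436, 5325 and 22.8 TPM.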

How the data were processed

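Single cells had been captured on the C1 system (Fluidigm), amplified with SMART-Seq v4 and sequenced as paired reads of 100 bases. The submitters' processing notes name FastQC, cutadapt, TopHat, featureCounts and GRCm38, and the study's methods state that reads with several matches were discarded. The deposited values are TPM per gene and cell, computed by the authors; they keep no depth and were used as deposited. Of 294 columns, 278 matched a label, 16 did not and were not used, and 8 cells with contradictory names and labels were left out, which leaves 270 cells. The members and gene lists were chosen with earlier results of these data known.

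TPM was averaged over the cells of each of the 4 library sets, and log2(mean + 1) was tested with limma 3.58.1 in R 4.3.3 (lmFit, eBayes with trend, two-sided, Benjamini-Hochberg adjustment) over the 12355 genes that exceeded a TPM of 1 in over 5 cells, with series or treatment as a block. The script was tested on simulated data. Recovery of added changes was required there only at a residual spread below that of the members. The check therefore says nothing about the power of the treatment test. Fold differences are on the log2(TPM + 1) scale, which understates changes of low genes. Sets of the same treatment or series carry no pairing beyond these labels. Genes named in the text were the 3 members, the 5 genes per member and series with the highest mean Spearman correlation among genes in at least 10% of cells of each set, and up to 4 examples of each list counted; Itgb4, Cdh1, Epcam and Col1a1 belong to the marker lists. Shared sequence was searched in the GENCODE M21 transcripts. Some items are not reported here. Alternatives were another summary of a set, another pseudocount, other filters, no block, each set left out, the 8 cells included, and, chosen after seeing the data, cells with over 5000 genes.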

Additional observations from a re-analysis of the deposited data

Results flagged for a closer look

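In 3 of the single genes checked beside the basal keratins, the treated set lay above the untreated one in GHA501A and below it in AG. This was not tested since each series has 1 set for a treatment. The split was not confined to these genes. The median treated minus untreated log2 differences in AG and GHA501A were -0.36 and 0.99 over 11 genes of basal layer adhesion. Over the 9 keratinocyte markers they were -0.47 and 1.21. On the log2(mean TPM + 1) scale the treated minus untreated differences in AG and GHA501A were -0.0686 and 1.64 for Krt6a, -0.29 and 1.28 for Cdh1, and -0.98 and 0.95 for Epcam. For Krt5, Krt14 and Krt15 both series had differences above 0, as they had for 2903 of the 12355 genes tested, the members included. Among the 5 AG cells named as untreated and labelled treated, 1 cell stood apart in Krt15: its gap to the next cell made up 0.909 of the range of the 5 values.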

How the results depend on the processing

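For treated against untreated, the log2 differences of Krt5, Krt14 and Krt15 kept their sign and stayed uncalled under 8 alternatives that kept all 4 sets, with or without the replicate block (without it 0 genes were called, as with it, and 27 against 486 had an unadjusted p under 0.05). They ranged from 0.89 to 1.10, 1.02 to 1.07 and 0.72 to 1.41. With 1 set left out the fits have no series term, so the gap between the series sets the sign and size by construction: the range was -1.05 to 2.86, -1.23 to 3.32 and -1.06 to 3.73, below 0 without AG treated and without GHA501A untreated, which says nothing about treatment. The number of genes called was 5 with the mean of log2(TPM + 1) over cells and 0 under the others. For AG against GHA501A the members stayed called under the alternatives that kept all sets, from 3.09 to 7.48 for Krt5, 3.68 to 8.11 for Krt14 and 4.12 to 5.72 for Krt15, the highest with the mean of log2(TPM + 1). With 1 set left out they ranged from 2.39 to 4.00, 2.74 to 4.64 and 3.12 to 5.13, and the call was lost without either AG set. That count of genes called was 4162 in all (1677 higher and 2485 lower in AG), 4177 without the block, 6305 with the mean of log2(TPM + 1) (3378 higher and 2927 lower), and 1865 to 2677 with 1 set left out. With 1 set left out fewer sets enter the test, and the cause of the shift with the mean of log2(TPM + 1) was not tested. Of 36 shares of cells 8 moved beyond their interval, of 24 correlations 11 moved by more than the spread between sets, and none changed sign. Read depth was unknown, so low levels could not be given a limit.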
